A study of Mus musculus with 5 samples.

Results

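Aminoacyl-tRNA synthetases join each amino acid to its tRNA, and their transcripts were followed here by SLAMseq in cultured mouse cardiac fibroblasts (CF). The members were chosen by name alone: every gene of the deposited tables whose name is that of a synthetase, 37 of 20365 gene names, with 72 of 40428 distinct intervals of 3′ UTRs. Of these genes, 20 code for synthetases of the cytosol, among them Gars and Kars, which also serve the mitochondria, and 17 for synthetases of the mitochondria. Each gene was represented by 1 interval, the one with the highest mean deposited CPM in the labeled libraries. The tables use older names for most cytosolic genes (Aars for Aars1, Eprs for Eprs1 and so on). A further gene, Tars3, is listed only under its older name Tarsl2 and is not among the 37.

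The CF came from hearts of adult healthy male C57Bl/6J wildtype mice, were freed by collagenase perfusion and grown to confluency. In 3 libraries, called labeled, the cells had been kept for 12 h with 0.1 mM 4-thiouridine (S4U), a uridine analog that enters newly made RNA. In 2 libraries, called unlabeled, the cells had been kept for the same time without it, and the RNA of all 5 libraries was alkylated. Alkylated S4U is read as C in place of T, so that the T>C conversion rate (conversions divided by covered T positions) rises with the share of a transcript made during labeling. The labels do not say which libraries came from the same cell preparation, and p-values therefore measure only the spread between these libraries.

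Each synthetase first activates its amino acid with ATP and then transfers it to the tRNA. The enzymes fall into classes I and II by the fold of the catalytic domain. In mammals, cytosol and mitochondria use separate genes for most amino acids, and all of these genes are in the nucleus. In the cytosol, 8 of the genes measured here code for members of the multisynthetase complex, which also holds the scaffold proteins Aimp1, Aimp2 and Eef1e1. Eprs carries the activities for glutamate and proline in one protein, and Farsa and Farsb are the subunits of the enzyme for phenylalanine. Many cytosolic synthetase genes are known targets of ATF4, the transcription factor of the integrated stress response.

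ATF4 binds with C/EBP proteins to a composite element whose core reads TGATGNAA. This core was looked for on both strands of RefSeq promoters (GRCm38.p6, 250 bases before to 50 bases after the start site), in which 27 of the 37 genes had an entry. It was present for 5 of the 27 genes (18.5%) and for 4.51% of 27025 genes with a promoter entry. All 5 were cytosolic genes (of 13 with an entry), and 0 of 14 mitochondrial genes had a match. For each of the 5 genes a match stands here in a window of 30 bases, because it marks the cytosolic genes that hold this core, and the capitals mark the core as it reads on the strand of the gene.
Aars, 9 bases after the start site: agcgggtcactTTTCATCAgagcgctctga
Gars, 30 bases before the start site: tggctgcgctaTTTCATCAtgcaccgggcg
Iars, 7 bases after the start site: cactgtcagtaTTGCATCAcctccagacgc
Tars, 15 bases before the start site: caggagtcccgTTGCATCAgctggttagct
Yars, 3 bases after the start site: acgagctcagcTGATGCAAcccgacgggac
A match is a description of letters, and binding was not measured.

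The libraries were made from the 3′ ends of mRNA, and a read stands for 1 transcript end, so levels are given in CPM, relative to all reads counted on 1 interval per gene in the library, without division by gene length. A polyadenylation signal (AATAAA or ATTAAA) lay in the last 50 bases of the interval for 29 of the 37 genes, 78.4%, against 77.6% of 19023 gene names. The ends of genes whose values are used most below are shown, with the signal in capitals.
Gars: cccacaATTAAAgttgaaggaattctgaac
Iars: cgtttgATTAAAtcaaaacagtaaacactc
Tars: atggcgttaaAATAAAatttactaccaaag
Iars2: tctgaaAATAAAggcattctgggaaactcc
Yars2: tttcaaAATAAAatgttacttaattgtagt
Nars2: aaaattaAATAAAaagctgattagaaatca
The interval of Gars is chr6:55056331-55056489, that of Iars chr13:49887218-49887736, that of Tars chr15:11383749-11384096, that of Iars2 chr1:185018839-185019245 and that of Yars2 chr16:16127356-16127504 (GRCm39), each inside 1 exon and all of it annotated UTR. The interval of Nars2, chr7:96711921-96725606, spans 13686 bases with 37.8% in annotated UTR, so its reads may include RNA outside the UTR. The interval of Aars, chr8:111781837-111784237, also covers the end of Exosc6 on the same strand, and values of a shorter Aars interval without it are given too. Intervals of Iars2 and Mars1 overlap Rab3gap2 and Ddit3 on the other strand, and those of Ears2, Farsb, Lars2, Sars and Wars2 also reach beyond 1 exon.

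Between 506045 and 1842706 reads were counted on 1 interval per gene, of which 1069 to 3966 fell on the 37 genes. The T>C rate over all intervals was 0.0353, 0.0358 and 0.0356 in labeled replicates 1 to 3 and 0.00111 and 0.000652 in the unlabeled libraries. All 10 fibroblast markers were measured, with sums of 41966, 41860 and 45415 CPM in the labeled and of 34221 and 37256 CPM in the unlabeled libraries. The 5 cardiomyocyte markers summed to between 0.634 and 8.03 CPM, with Ryr2 at 0 in all libraries. Endothelial markers (5 genes) summed to between 93.9 and 197.8 CPM and immune markers (5 genes) to between 35.8 and 73.6 CPM. The 5 smooth muscle markers (Myh11 at 0 in all) summed to 1034, 1977 and 2452 CPM in the labeled and to 538.9 and 999.0 CPM in the unlabeled libraries. In the labeled group the library numbered 1 stood apart from the rest in levels, also for the members. The unlabeled group has too few libraries to say which of them stood apart. In most genes and members compared, its library numbered 1 differed from the other unlabeled library in the same direction. Some results are also given without both libraries numbered 1.

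With S4U, T>C conversions appeared in nearly all synthetase transcripts. Of the 36 genes with a covered T in every library, 34 had a higher rate in the labeled libraries (beta-binomial test, p below 0.05), against a background of 95.1% of the 11177 genes tested on 1 interval. The exceptions were the mitochondrial genes Sars2 and Pars2, covered by 150 and 190 T positions in all labeled libraries together. In 33 of the 36 genes, the 3 labeled rates were all above both unlabeled rates, which held for 90.4% of genes. Without both libraries numbered 1, which leaves 1 unlabeled library, 30 of 36 members passed, beside 86.5% of 11352 genes.

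**Figure D1:**
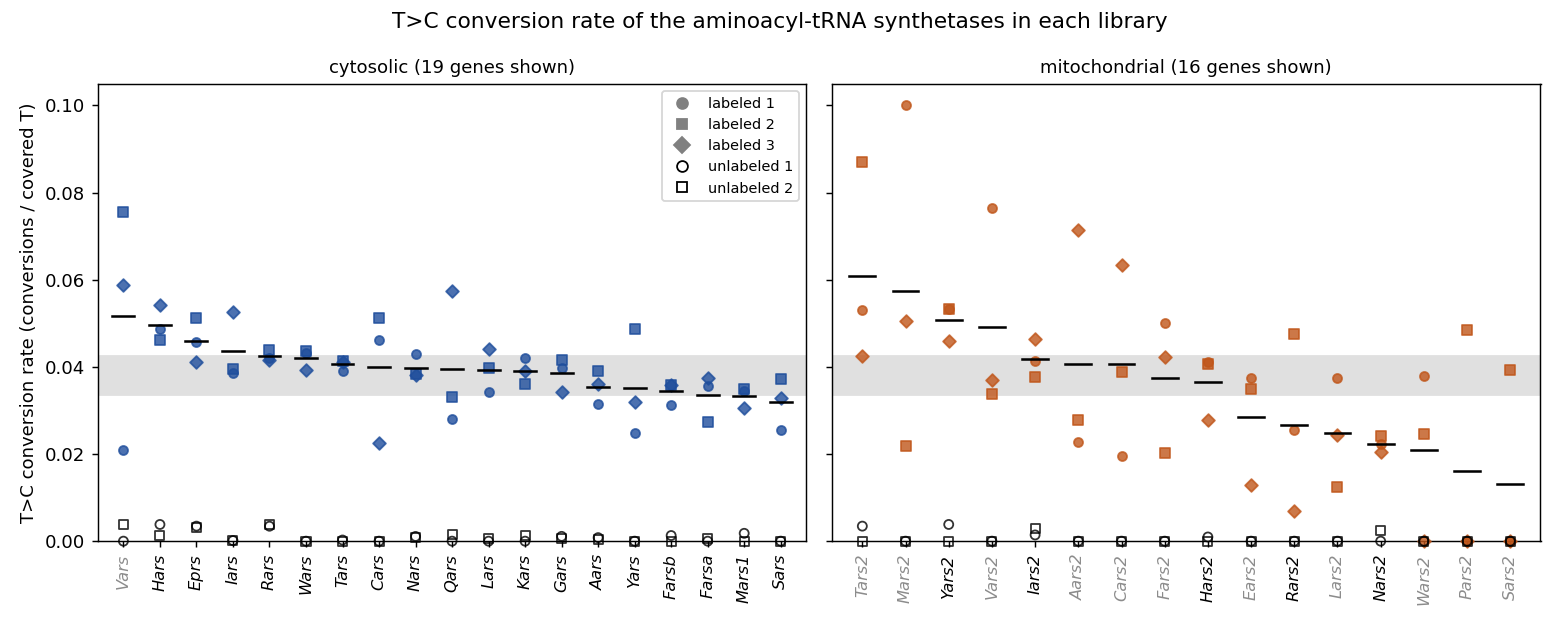
T>C conversion rate (conversions divided by covered T positions) of 19 cytosolic and 16 mitochondrial synthetases, with 1 point per library and the mean of the labeled libraries as a bar. The grey band runs from 0.0336 to 0.0425, the quartiles of genes covered at 100 T positions or more in each labeled library, and names in grey mark genes below that coverage.

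Depth set how well a rate was known. Of the members, only Aars, Gars, Iars, Nars and Tars, the enzymes for alanine, glycine, isoleucine, asparagine and threonine, reached 1000 covered T positions in each labeled library. All are cytosolic and all are listed here as ATF4 targets. They are therefore both the 5 highest and the 5 lowest at this depth.

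The rate of Tars was 0.0391, 0.0414 and 0.0412 in the labeled libraries (0.0406 ± 0.00127, SD, n = 3) and 0.000261 and 0 in the unlabeled libraries. The rate of Nars was 0.0429, 0.0384 and 0.0382 (0.0398 ± 0.00261), with 0.00108 and 0.000737 without S4U. The rate of Gars was 0.0397, 0.0416 and 0.0342 (0.0385 ± 0.00383), with 0.00110 and 0.000671 without S4U. These 3 genes overlapped each other in the labeled libraries and lay near the median of 0.0388 over the 2119 genes of the same depth.

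The rate of Iars was 0.0385, 0.0394 and 0.0526 (0.0435 ± 0.00789), the highest mean of the 5, but it rested on labeled replicate 3, where it stood above the other libraries. The rate of Aars was 0.0315, 0.0390 and 0.0360 (0.0355 ± 0.00378), the lowest of the 5. On the shorter interval without Exosc6, chr8:111781837-111782201, the rate of Aars was 0.0309, 0.0411 and 0.0410 (0.0377 ± 0.00582), and that of Exosc6 itself was 0.0322, 0.0305 and 0.0234. The ranges of the 5 genes overlapped, except that on the longer Aars interval all libraries of Aars were below those of Tars, while on the shorter interval these overlapped too.

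At a lower minimum of 100 covered T positions per labeled library, 24 genes remained, 19 cytosolic and 5 mitochondrial. Their mean rates ran from 0.0223 to 0.0508 with a median of 0.0394, beside a median of 0.0384 over 8390 genes. Of the 24, 5 lay below the lower quartile of these genes, 13 between the quartiles and 6 above the upper quartile. The synthetases as a group were thus spread over the range of other transcripts.

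The highest mean rate of the 24 was that of Yars2, the mitochondrial enzyme for tyrosine, with 0.0532, 0.0533 and 0.0459 (0.0508 ± 0.00424). Hars, for histidine, followed with 0.0487, 0.0461 and 0.0542 (0.0496 ± 0.00414). Eprs, also among the 6 genes above the upper quartile, had 0.0457, 0.0513 and 0.0411 (0.0460 ± 0.00513). These 3 genes were above the rate of all intervals in each labeled library, and their ranges overlapped.

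The lowest mean rate was that of Nars2, the mitochondrial enzyme for asparagine, with 0.0224, 0.0240 and 0.0205 (0.0223 ± 0.00175). Rars2, for arginine in mitochondria, had 0.0256, 0.0476 and 0.00694 (0.0267 ± 0.0204) and therefore no settled place. Of the cytosolic genes, the lowest were Sars for serine (0.0318 ± 0.00592), Mars1 for methionine (0.0333 ± 0.00248), Farsa (0.0335 ± 0.00544) and Farsb (0.0344 ± 0.00263). The subunits Farsa and Farsb, which form 1 enzyme, had overlapping rates.

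The genes at the ends were picked by these same values, so their distance is a description. Over the labeled libraries together, Yars2 had a rate of 0.0521 (95% Clopper-Pearson interval 0.0429 to 0.0625) and Nars2 of 0.0227 (0.0150 to 0.0329). Among cytosolic genes, Hars had 0.0484 (0.0428 to 0.0545) and Farsa 0.0310 (0.0261 to 0.0365), and every labeled library of Hars was above every one of Farsa. These intervals cover counting error only.

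The remaining cytosolic genes lay between. Mean rates were 0.0425 ± 0.00113 for Rars, 0.0420 ± 0.00238 for Wars, 0.0400 ± 0.0154 for Cars, 0.0395 ± 0.0157 for Qars, 0.0393 ± 0.00492 for Lars, 0.0390 ± 0.00302 for Kars and 0.0351 ± 0.0122 for Yars (SD, n = 3). Rars, Wars and Kars varied little between libraries, while Cars, Qars and Yars varied by more than the distance between most genes. Vars, below the minimum with 489 covered positions in the labeled libraries, ran from 0.0208 to 0.0755.

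Some members carried conversions also without S4U. Rars had 0.00343 and 0.00393 in the unlabeled libraries, with 14 conversions in 3932 covered positions. Eprs had 0.00345 and 0.00317, with 27 in 8010. Both were above the rate of all intervals in each unlabeled library, and the 95% interval of the pooled rate of Eprs ran from 0.00222 to 0.00490.

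Hars had 0.00383 and 0.00124, with 10 conversions in 3703 positions. Iars had only 2 in 11715 and Tars 2 in 9987. In 17 of the 37 genes, 5 cytosolic and 12 mitochondrial, no conversion was seen without S4U, which for Yars allows a rate of up to 0.00153 (3 conversions of 1965 positions). The mitochondrial genes together had only 11583 and 4957 covered positions in the unlabeled libraries, so 0 conversions there do not show a lower background. Summed over genes, their unlabeled rate was 0.00121 in each library, and that of the cytosolic genes 0.00109 and 0.000788. Between single members the background differed, and with the mean unlabeled rate subtracted the labeled rate of Rars was 0.0388 and that of Eprs 0.0427.

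The 8 genes of the multisynthetase complex (among them Eprs, Iars, Kars and Lars) had a median of mean rates of 0.0410, and the 11 cytosolic genes outside it with the same minimum had 0.0385. Summed over genes, the complex had 0.0420, 0.0423 and 0.0450 conversions per covered T in labeled replicates 1 to 3, and the other 12 cytosolic genes had 0.0393, 0.0397 and 0.0377. The complex was higher in each library, by less than the distance between single genes. The 13 ATF4 targets had a summed rate of 0.0392, 0.0413 and 0.0393, and the 7 other cytosolic genes of 0.0447, 0.0381 and 0.0422. Neither of these last groups was higher in every library.

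Cytosolic and mitochondrial synthetases did not differ in rate beyond the spread between libraries. The median over the 19 cytosolic genes with at least 100 covered positions was 0.0391, 0.0398 and 0.0389 in the labeled libraries. The median over Hars2, Iars2, Nars2, Rars2 and Yars2 was 0.0411, 0.0406 and 0.0278, which in each library was the rate of Hars2, the middle gene of the 5. The difference, cytosolic minus mitochondrial, was -0.00195, -0.000775 and 0.0112 (0.00281 ± 0.00726, SD, n = 3) and changed sign between libraries. Without labeled replicate 3 it was -0.00136. With conversions and covered positions summed over the same members in place of the median it was 0.00099.

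Summed over all members with no minimum, the rate of the cytosolic genes was 0.0404, 0.0405 and 0.0401. That of the mitochondrial genes was 0.0408, 0.0331 and 0.0362. The mitochondrial sum of labeled replicate 3 rests on 77 conversions in 2130 positions, with a 95% interval from 0.0286 to 0.0450 that includes the cytosolic value.

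Of the mitochondrial genes with more than 100 positions, Iars2 had 0.0414, 0.0377 and 0.0463 (0.0418 ± 0.00434) and Hars2 0.0411, 0.0406 and 0.0278 (0.0365 ± 0.00753). The other 12 had fewer than 100 covered positions in at least 1 labeled library. Lars2, for leucine, ran from 0.0124 to 0.0375, Vars2 from 0.0337 to 0.0764, and Aars2 from 0.0227 to 0.0714 on 230 positions. Such values give no order among these genes.

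For 17 amino acids the cytosolic gene can be set beside its mitochondrial counterpart, in 18 pairs that count Eprs against Ears2 and Pars2, and Farsa and Farsb against Fars2. The 95% intervals of the pooled labeled rate lay apart in 3 of the 18 pairs. With a labeled library left out it was 1 to 3 pairs, with no pair apart in each of these cases. The intervals count each covered T position as independent, although 1 read covers several, and leave out the spread between libraries. Intervals that lie apart are therefore a description. Nars had 0.0406 (0.0375 to 0.0439) and Nars2 0.0227 (0.0150 to 0.0329), and Nars was higher in 3 of 3 labeled libraries. Yars had 0.0343 (0.0274 to 0.0425) and Yars2 0.0521 (0.0429 to 0.0625), and Yars was lower in 3 of 3. Lars had 0.0389 (0.0324 to 0.0463) and Lars2 0.0165 (0.0110 to 0.0238), but Lars was higher in only 2 of 3. Labeled replicate 2 held 1372 of the 1694 covered T positions of Lars2, and without it Lars2 had 0.0342 (0.0172 to 0.0603) and Lars 0.0380 (0.0290 to 0.0488), which overlap. The intervals of Nars and Nars2 overlapped without labeled replicate 1, and those of Yars and Yars2 without labeled replicate 1 or 3.

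The 3 pairs went in both directions. In the other 15 the intervals overlapped with all 3 labeled libraries, which at this depth does not show that the rates were alike. Without labeled replicate 2, the intervals of Rars (0.03533 to 0.0495) and Rars2 (0.0126 to 0.03530) lay narrowly apart. Iars with 0.0409 (0.0375 to 0.0446) and Iars2 with 0.0411 (0.0353 to 0.0475) were the closest well covered pair. Hars with 0.0484 (0.0428 to 0.0545) and Hars2 with 0.0393 (0.0314 to 0.0485) overlapped narrowly, although Hars was higher in each labeled library.

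Further mitochondrial genes had pooled rates of 0.0338 for Rars2 (Rars 0.0425), 0.0337 for Ears2 and 0.0263 for Pars2 (Eprs 0.0470). Fars2 had 0.0394 (Farsa 0.0310, Farsb 0.0347), Wars2 0.0299 (Wars 0.0426), Vars2 0.0514 (Vars 0.0511) and Cars2 0.0429 (Cars 0.0442). Aars2 had 0.0348 (Aars 0.0363), Sars2 0.0267 (Sars 0.0351), Mars2 0.0405 (Mars1 0.0341) and Tars2 0.0543 (Tars 0.0399). The cytosolic gene was higher in 3 of 3 labeled libraries in 5 of the 18 pairs and lower in 3 of 3 in 2 pairs, Yars and Tars.

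**Figure D2:**
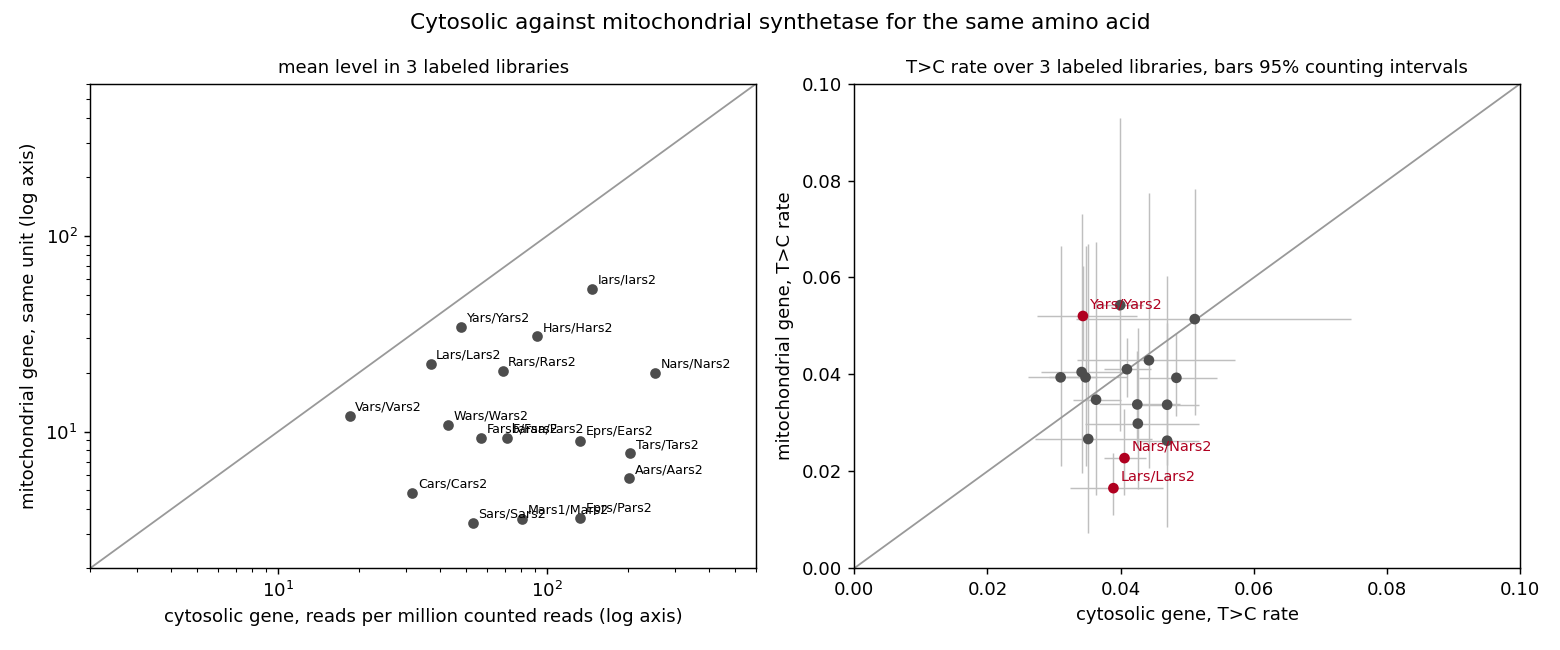
For 17 of the 18 pairs, each point is a cytosolic gene (horizontal axis) and the mitochondrial gene for the same amino acid (vertical axis), with the mean level in the 3 labeled libraries in CPM on log axes at the left and the pooled T>C rate with 95% counting intervals at the right. All points lie under the line of equal level, while the rates lie on both sides of the line, and the named pairs of Yars, Nars and Lars have intervals apart with all 3 labeled libraries.

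The compartments stood apart in level. In RNA from whole cultures, fewer cells with a transcript and less of it per cell cannot be told apart. Summed over genes, the cytosolic synthetases had 1953, 2024 and 1899 CPM in the labeled and 1815 and 1787 CPM in the unlabeled libraries. The mitochondrial synthetases had 291.2, 277.8 and 213.4 CPM and 337.0 and 243.0 CPM. The cytosolic sum was 6.71, 7.29 and 8.90 times the mitochondrial sum with S4U and 5.39 and 7.36 times without it.

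The highest mean level in the labeled libraries was that of Gars, with 239.8, 290.4 and 270.7 CPM (267.0 ± 25.5, SD, n = 3). Nars followed with 291.2, 245.2 and 219.3 CPM (251.9 ± 36.4) and Tars with 299.5, 150.6 and 162.0 CPM (204.1 ± 82.8). Their order changed between libraries, Tars being highest in labeled replicate 1.

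Aars had 133.9, 259.4 and 213.4 CPM (202.2 ± 63.5) on the interval shared with Exosc6, and 81.2, 204.2 and 152.2 CPM (145.9 ± 61.7) on the shorter interval. Iars had 162.4, 139.8 and 138.3 CPM (146.8 ± 13.5). Together the 5 highest genes took 48.3% of the reads of the 37, and the lowest of them, Iars, was at the percentile 87.9 of genes with a read in every labeled library. Next were Eprs (133.0 ± 39.9 CPM), Hars (91.9 ± 4.39) and Mars1 (81.0 ± 27.7), and the lowest cytosolic gene was Vars (18.5 ± 5.50).

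Among mitochondrial genes Iars2 was highest with 64.1, 46.9 and 49.4 CPM (53.5 ± 9.30), followed by Yars2 (34.3 ± 10.4) and Hars2 (30.6 ± 9.13). The lowest were Sars2 (3.41 ± 1.93), Mars2 (3.58 ± 2.70) and Pars2 (3.63 ± 1.58), with at most 6 reads in any library. Gars was 78.2 times Sars2. Of the 20 cytosolic genes, 13 had a higher mean than every mitochondrial gene, and the median gene had 66.3 CPM in the cytosolic and 9.82 CPM in the mitochondrial group, beside 30.7 CPM for all genes with a read in every labeled library.

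In 16 of the 18 pairs the cytosolic gene was higher in all 5 libraries. The difference was largest for Eprs over Pars2 (36.7 times in the labeled mean), Aars over Aars2 (35.1 times, and 25.3 times on the shorter Aars interval) and Tars over Tars2 (26.4 times). It was smallest for Yars over Yars2 (1.39 times), Vars over Vars2 (1.53 times) and Lars over Lars2 (1.66 times). In the latter pair labeled replicate 2 held 49.4 CPM of Lars2, on 59 reads, against 9.52 and 7.90 CPM in the other labeled libraries, and Lars2 was slightly above Lars (47.7 CPM) there.

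**Figure D3:**
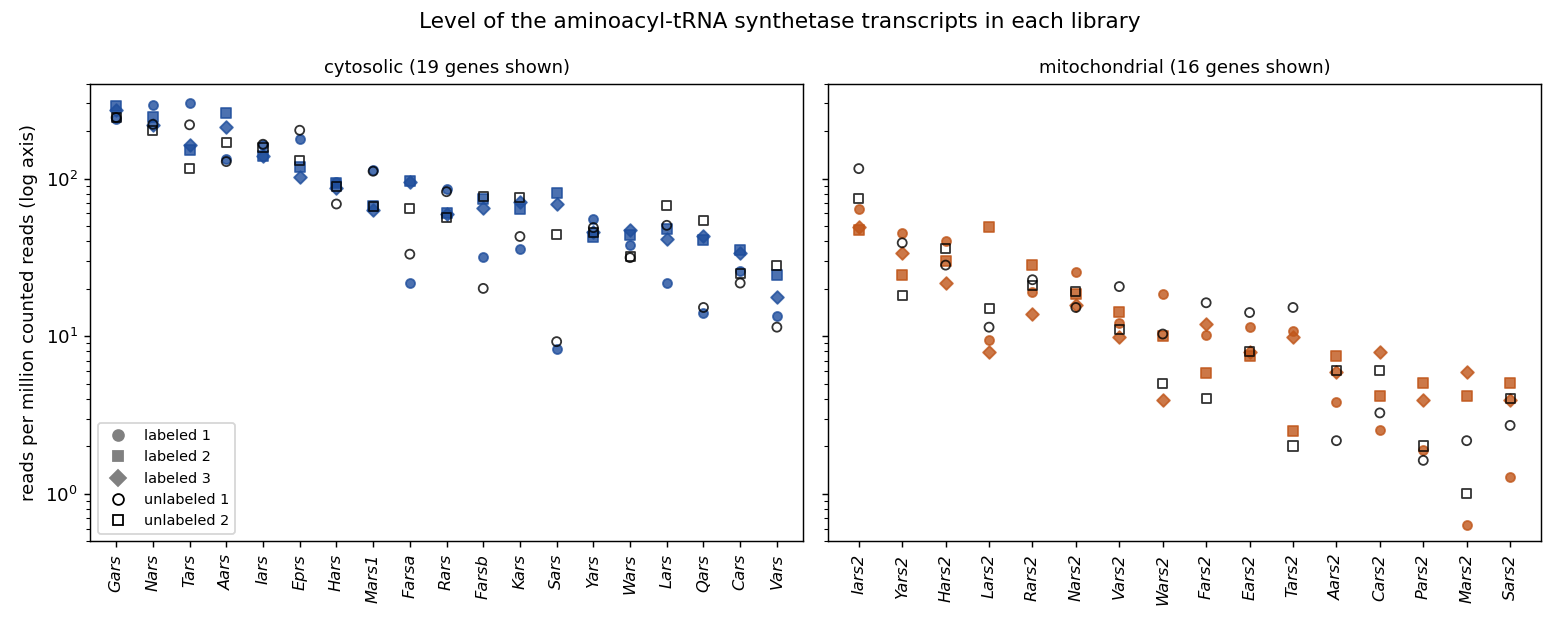
Level of 19 cytosolic and 16 mitochondrial synthetase transcripts in CPM (log axis), with 1 point per library, ordered by the mean of the labeled libraries. Cytosolic genes run from a mean of 267.0 to 18.5 CPM and mitochondrial genes from 53.5 to 3.41 CPM.

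Several members moved with the replicate number rather than with S4U. Sars was at 8.25 CPM in labeled replicate 1, against 81.2 and 69.2 CPM in labeled replicates 2 and 3, and at 9.23 against 44.2 CPM in unlabeled replicates 1 and 2. Farsa had 21.6 against 97.1 and 94.9 CPM, and 33.1 against 64.3 CPM. Farsb had 31.7 against 73.6 and 65.2 CPM, and 20.1 against 77.3 CPM. For these genes both libraries numbered 1 were below all others.

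Qars (14.0 against 41.0 and 43.5 CPM, and 15.2 against 54.2 CPM) and Kars (35.5 against 63.6 and 71.1 CPM, and 42.9 against 75.3 CPM) followed the same order. Tars, Mars1 and Rars were higher in both libraries numbered 1, as for Mars1 with 112.9 against 66.9 and 63.2 CPM, and 111.2 against 66.3 CPM. Of 32 members that passed the filter on low counts, 27 deviated with the same sign in both groups, beside 82.1% of 6859 genes with at least 10 reads in every library.

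The Spearman correlation of the deviations was 0.821 across the 32 members and 0.818 across those genes, given as a description, since genes share the libraries. With the GC content of the interval the deviation in the labeled group had a correlation of -0.414 across the members and -0.382 across the genes, and in the unlabeled group of -0.263 and -0.326. The part of GC content in the deviations was not tested.

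**Figure D4:**
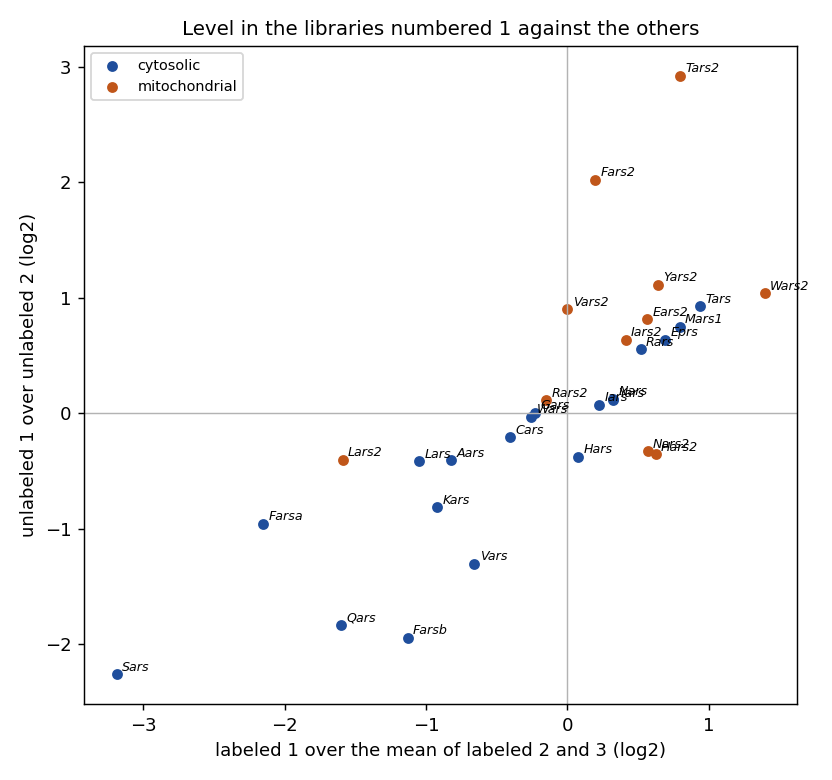
Level in labeled replicate 1 over the mean of labeled replicates 2 and 3 (horizontal axis, log2) against unlabeled replicate 1 over unlabeled replicate 2 (vertical axis, log2), for 30 of the 32 members that passed the filter on low counts. Sars, Farsa, Farsb and Qars lie far to the lower left and Tars and Mars1 to the upper right.

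Whether S4U itself went with a change in level was asked of the read counts. With edgeR's quasi-likelihood test, 0 of the 32 members tested changed at an adjusted p below 0.05, against a background of 0% of 9806 genes. At an unadjusted p below 0.05 there was 1 member, beside 5.98% of genes. DESeq2 called 0 members, beside 0.116% of genes, and also 0 at an unadjusted p below 0.05, beside 2.75%. Log2 fold changes ran from -0.74 to 1.07 with a median of 0.05 over the members and 0.02 over all genes, and 20 members were above 0, beside 51.7% of genes. These fits hold no block. With the replicate number as a block, which leaves 1 residual degree of freedom, Tars, Lars and Iars2 were called, beside 11.7% of genes.

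The member with an unadjusted p below 0.05 was Iars2, with 64.1, 46.9 and 49.4 CPM in the labeled and 115.6 and 74.3 CPM in the unlabeled libraries. Its log2 fold change was -0.74 (SE 0.30, edgeR adjusted p = 0.81). All labeled libraries were below both unlabeled libraries. The log2 fold change was -0.44 without unlabeled replicate 1 and -0.60 without both libraries numbered 1, which leaves 1 unlabeled library and is given no p.

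The groups did not overlap in 4 of the 32 members, beside 21.4% of the genes tested. Besides Iars2 these were Lars, Cars and Wars. Lars had 21.6, 47.7 and 41.5 CPM against 50.5 and 67.3 CPM, a log2 fold change of -0.61 (SE 0.42, edgeR adjusted p = 0.99), and it was -0.29 without labeled replicate 1 and -0.34 without unlabeled replicate 2. Wars, for tryptophan, had 38.1, 43.5 and 47.4 CPM against 31.5 and 32.1 CPM (log2 fold change 0.50, SE 0.30, edgeR adjusted p = 0.96), and Cars, for cysteine, 26.0, 35.1 and 33.6 CPM against 21.7 and 25.1 CPM (0.50, SE 0.34, edgeR adjusted p = 0.99). None passed the test without a block, and Iars2 and Lars were called with the replicate number as a block, beside 11.7% of genes. The share of members without overlap was below the background.

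The highest log2 fold changes of the members were those of Sars and Lars2. That of Sars was 1.07 (SE 1.01, edgeR adjusted p = 0.999), and it was 2.61 without unlabeled replicate 2 and 0.26 without unlabeled replicate 1. That of Lars2 was 0.89 (SE 0.81, edgeR adjusted p = 0.999) and turned to -0.49 without labeled replicate 2. Tars, among the 5 genes of highest level, had 0.37 (SE 0.40, edgeR adjusted p = 0.999), which was -0.0020 without labeled replicate 1, 0.85 without unlabeled replicate 1 and 0.012 without unlabeled replicate 2.

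**Figure D5:**
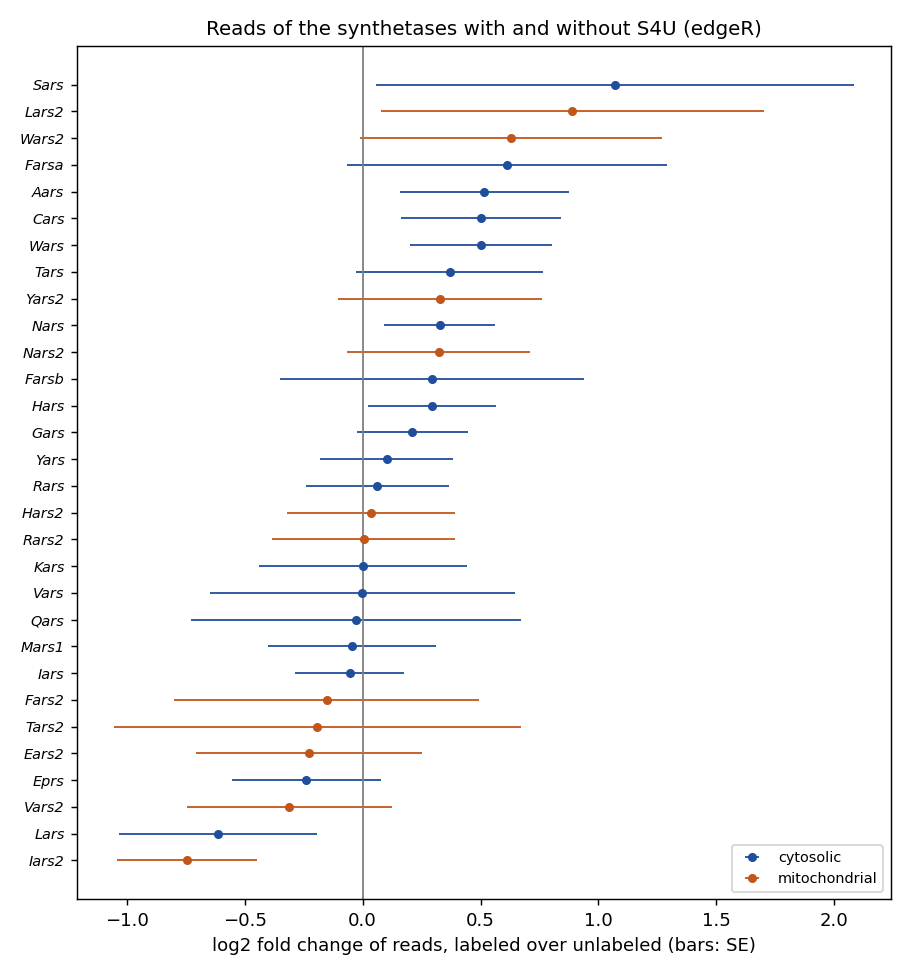
Log2 fold change of reads, labeled over unlabeled, with bars of the SE derived from edgeR's test, for 30 of the 32 members tested. The values run from -0.74 for Iars2 to 1.07 for Sars, and most bars cross or touch 0.

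Of the 20 cytosolic genes, all tested, 14 had a fold change above 0, beside 51.7% of genes, and the median log2 fold change was 0.16. Of the 12 mitochondrial genes tested, 6 were above 0, and the median was -0.07. The cytosolic sum of CPM was higher in all 3 labeled libraries than in both unlabeled ones (log2 ratio of the means 0.12), but by the deposited CPM the ratio was -0.25. The mitochondrial sums overlapped (log2 ratio -0.15, and -0.49 by the deposited CPM), and the sign turned without unlabeled replicate 1, to 0.10, and without both libraries numbered 1, to 0.016. With 3 libraries against 2 the smallest two-sided p of an exact permutation test is 0.2, and no p is given for these sums.

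Within the cytosolic genes, members of the complex and the other genes are set side by side. The 8 genes of the complex summed to 699.2, 587.5 and 573.1 CPM with S4U and 758.7 and 650.6 CPM without it, with a median log2 fold change of -0.04 and 3 genes above 0. The 12 genes outside it summed to 1254, 1437 and 1326 CPM with S4U and 1057 and 1137 CPM without it, with a median of 0.35 and 11 genes above 0. All 10 cytosolic genes of class II had a log2 fold change above 0 in edgeR (median 0.31, down to 0.0017 for Kars). In DESeq2 it was 9 of 10, with Kars at -0.0018, and in edgeR with the replicate number as a block also 9 of 10. Of the 9 genes of class I, 4 were above 0 in edgeR. None of these genes passed the test without the block, and Tars and Lars were called with it, beside 11.7% of genes. No test of the difference between the groups was run. The smooth muscle markers given above were higher in the labeled libraries of the same replicate number, and their part in these values was not tested.

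Other genes of tRNA charging and of the stress response give the surroundings. Of 19 partners of the synthetases (scaffolds, tRNA export and processing, proofreading, elongation factors), 16 were tested and 0 passed the read test, also 0 at an unadjusted p below 0.05, with a median log2 fold change of -0.02. With the replicate number as a block, Aimp2 and Eef1e1 were called, both higher, beside 11.7% of genes called. Among the scaffolds of the complex, Eef1e1 had the highest rate of the 10 partners with at least 100 covered T positions, with 0.0498 ± 0.00376, Aimp1 had 0.0464 ± 0.00315 and Aimp2 0.0347 ± 0.00713. Dtd2, which removes D-amino acids from tRNA, had 0.0468 ± 0.0164. The lowest rate of these 10 was that of Eef1a1, which brings charged tRNA to the ribosome, with 0.0218 ± 0.00168 at 1628 ± 332 CPM, below all labeled rates of Aars, Gars, Iars, Nars and Tars. Sepsecs, of selenocysteine synthesis, had 0.0360 ± 0.00781.

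Of 22 genes of the integrated stress response, 20 were tested and 0 passed at an adjusted p below 0.05 without a block. With the replicate number as a block, which leaves 1 residual degree of freedom, 8 were called higher and 1 lower, beside 11.7% of genes. Without the block, 17 of the 20 had a log2 fold change above 0 (median 0.54), beside 51.7% of all genes. An unadjusted p below 0.05 was seen for 5 of them, beside 5.98% of genes. The smooth muscle markers were also higher with S4U, 4 of 4 tested being above 0 and Tagln (log2 fold change 1.72, DESeq2 adjusted p = 0.016) passing in DESeq2. Whether they moved together with the stress genes, and their part in these values, was not tested. The 5 stress genes were Trib3 (log2 fold change 1.64, SE 0.33, edgeR adjusted p = 0.53), Mthfd2 (1.29, SE 0.37, 0.63), Nupr1 (1.26, SE 0.34, 0.62), Pycr1 (1.62, SE 0.54, 0.73) and Chac1 (2.40, SE 0.88, 0.77). Without both libraries numbered 1 the spread comes from 2 labeled libraries alone, and the 1 unlabeled library left is assumed to vary like them, so p-values of that fit say little about the conditions. In it 6 of the list passed, these 5 and Ddit3, all higher with S4U, beside 1.7% of 9620 genes that passed as higher. Of the synthetases 0 passed, beside 3.84% in either direction, and 5 had an unadjusted p below 0.05, beside 16.2%.

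Trib3, a pseudokinase induced by ATF4, had 53.9, 50.2 and 59.3 CPM with S4U and 22.3 and 14.1 CPM without it. Nupr1 had 191.0, 182.4 and 130.4 CPM against 96.6 and 51.2 CPM. Mthfd2, of mitochondrial folate metabolism, had 148.5, 223.4 and 217.4 CPM against 62.4 and 106.4 CPM. In these 3 genes all labeled libraries were above both unlabeled libraries.

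Atf4 itself had 756.3, 633.5 and 739.1 CPM against 643.1 and 469.9 CPM (log2 fold change 0.43, SE 0.25, edgeR adjusted p = 0.96). The 13 synthetases known as ATF4 targets had a median log2 fold change of 0.21, with 8 above 0, beside 51.7% of genes. Without a block, 0 passed the test. With the replicate number as a block, 1 of them was called higher and 1 lower, beside 11.7% of genes called. Among the 19 stress genes with at least 100 covered T positions the highest rates were those of Asns (0.0448 ± 0.00178), Shmt2 (0.0442 ± 0.00821) and Ppp1r15a (0.0407 ± 0.00587), and the lowest those of Chac1 (0.0283 ± 0.0197), Pycr1 (0.0296 ± 0.00431) and Ddit4 (0.0302 ± 0.00723). The median over these 19 genes was 0.0361, beside 0.0394 over the 24 synthetases.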

How the data were processed

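SLAMseq libraries of CF were analysed, 3 labeled and 2 unlabeled, grouped by the submitters' labels. UMI were extracted with umi-tools and reads mapped to mm39 with SLAM-DUNK 0.4.3 by the authors, who deposited for each 3′ UTR interval the counts of reads, of reads with a conversion, of covered T positions and of conversions, all raw. The conversion rate in the deposited tables is the fraction of covered T positions read as C. The deposited CPM divides reads by 1 number per library, which exceeds the counted reads to a different extent in each library. It was 11942554, 14096370 and 14616278 in labeled replicates 1 to 3, with 1576048, 1194971 and 506045 counted reads. In unlabeled replicates 1 and 2 it was 14498918 and 10975173, with 1842706 and 995960 counted reads. CPM in the text is relative to the reads counted on 1 interval per gene. T content matched GRCm39 in 40380 of 40380 intervals, and coordinates count from 1.

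The members and lists were chosen with earlier results of these data known. Values of some members are not reported here, although they enter the counts, sums and medians. Full values are given for the 5 highest and 5 lowest rates among members that reach 1000 covered T positions in each labeled library, the 5 highest levels, members past the read test under any fit and each cytosolic and mitochondrial pair. For the partner and stress lists, counts are given with the 3 highest and 3 lowest rates. Since no mitochondrial gene reached 1000, the comparison of compartments used a minimum of 100.

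T>C rates of the groups were tested by likelihood ratio in a beta-binomial model (two-sided, unadjusted p, a covered T in every library). Its overdispersion was fitted for each interval on its own and shared by both groups. Reads were compared with edgeR 4.0.16 (quasi-likelihood test, TMM, filterByExpr, Benjamini-Hochberg adjustment over all genes). The SE given with it is the absolute log2 fold change divided by the square root of the F statistic. Alternatives used DESeq2 1.42.0, limma 3.58.1 on log odds (pseudocount 0.5), other size factors, filters, coverage minimums and intervals, the replicate number as a block, and each library left out. Leaving out both libraries numbered 1, the shorter Aars interval, the sum over all members and the pairs with a labeled library left out were added after the data were seen. R 4.3.3 was used for these fits, and Python 3.11.15 with scipy 1.17.1, numba 0.67.0, numpy 2.4.6 and pandas 2.3.3 for the rest, with figures by matplotlib 3.10.9. The tests were tried on simulated data. Depth, 506045 to 1842706 reads per library, limits the rates of genes with few covered T positions, and limits given for 0 conversions are 3 conversions of the covered positions.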

Additional observations from a re-analysis of the deposited data

Results flagged for a closer look

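Conversions were also seen in intervals of the members that were not used above and do not overlap the interval used. For Iars2, intervals chr1:185041894-185044471 and chr1:185041894-185044681 share their reads and had a pooled labeled T>C rate of 0.0455 (8 conversions of 176 covered T positions, 13 reads), with 0 conversions of 294 positions without S4U, which allows a rate of up to 0.0102. For Wars2, interval chr3:99122359-99123616 had 0.0550 (6 conversions of 109 positions, 5 reads), with 0 of 83 positions without S4U, which allows up to 0.0361.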

How the results depend on the processing

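Depth limits the members: 13 of 37 had fewer than 100 covered T positions in a labeled library, and the rates of these 13 give no order. The count of members with a higher T>C rate was 34 of 36, 5 where 1000 covered T positions were required in every library (5 members tested), 24 where 100 were required, and 34 to 36 with a labeled library left out. Leaving out an unlabeled library leaves 1 in that group, which gives no spread for it. The number of members with changed reads was 0 with each library left out, other size factors, no filter, summed intervals or DESeq2. With the replicate number as a block, which leaves 1 residual degree of freedom, it was 3 of 32: Tars (log2 fold change 0.48, edgeR adjusted p = 0.030), Lars (-0.79, 0.011) and Iars2 (-0.72, 0.0060), beside 11.7% of genes; called too were Aimp2 and Eef1e1 of the partners, and 8 stress genes higher and 1 lower. The rate count in limma was 35 of 36 with the block, beside 96.4% of genes, and 33 without it, beside 95.4%. The number is shared by labels alone, and deviations correlated at 0.784 between the libraries numbered 1. With 2 unlabeled libraries the value for number 2 (0.638) is not independent of it, and labeled replicate 3 also correlated with unlabeled replicate 2 (0.482).

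The difference in median rate between cytosolic and mitochondrial genes was 0.00281, ran from -0.00136 to 0.00519 with a labeled library left out, and was -0.0225 by the share of reads with a conversion. At a minimum of 1000 covered positions, and above it, no value could be had, since no mitochondrial gene remained. The log2 ratio of the cytosolic sum was 0.12, ran from 0.097 to 0.14 with a library left out, and was -0.25 by the deposited CPM. That of the mitochondrial sum was -0.15, ran from -0.37 to 0.10 with a library left out, was -0.49 by the deposited CPM and 0.016 without both libraries numbered 1. Of single genes, the log2 fold change of Tars ran from -0.0020 (without labeled replicate 1) to 0.85 (without unlabeled replicate 1), and that of Lars2 from -0.49 (without labeled replicate 2) to 1.34 (without labeled replicate 1). The number of pairs with rate intervals apart was 3 and ran from 1 to 3 with a labeled library left out. The cause of these changes was not tested.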
